A study of Bos taurus with 138 samples.

Results

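DEAD and DEAH box RNA helicases were followed as a group through bovine oocyte maturation and preimplantation development. Members were taken by symbol, as DDX or DHX followed by a number, without DDX4 and DDX6, and this gave 46 genes of the 16706 gene symbols in the table, 30 with DDX symbols and 16 with DHX symbols. The study separated bovine oocytes and embryos on sucrose gradients, in which mRNA carrying more ribosomes sediments further, and sequenced 10 fractions (F1 to F10) of 2 gradients at each of 6 stages, beside 3 whole transcriptomes per stage. The stages were germinal vesicle (GV) oocytes, metaphase II (MII) oocytes, 2-cell embryos, 8-cell embryos, morulae and blastocysts. No genetic or drug difference between the stages is described. All of this material came from ovaries collected at slaughter, and the later stages were matured, fertilized and cultured in vitro, so each stage stands for embryos produced in vitro and each library for a pool of many of them. Cycloheximide, which stalls ribosomes on mRNA, was given to the gradient material at every stage. The methods of the study do not say whether the transcriptome material had it too. Polysome-occupied mRNA is here the sum of F8, F9 and F10 of 1 gradient, called a polysome pool, and F3 to F5 are the monosome fractions.

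These helicases are ATP-dependent enzymes named for a short motif in their catalytic core, Asp-Glu-Ala-Asp or Asp-Glu-Ala-His. They open short RNA duplexes or strip proteins from RNA, and different members serve pre-mRNA splicing, the assembly of ribosomal subunits in the nucleolus, mRNA export, translation initiation, RNA decay and the sensing of viral RNA. In oocytes transcription is silent and proteins are made from stored maternal mRNA, while in cattle the embryonic genome becomes broadly active around the 8-cell stage.

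Polysome pools held between 22543737 and 39380638 expected counts, and transcriptomes between 3269386 and 11812567. All 46 members passed the filter on low counts, beside 14612 genes in all in the comparison of pools with transcriptomes. The SD between libraries of a stage on log2(CPM + 1), where CPM is the count scaled to library size, had a median over the members of 0.17 to 0.31 in transcriptomes and of 0.2 to 0.68 in polysome pools, where it was highest at the 8-cell stage. Oocyte markers summed to 19900 to 22200 CPM in GV transcriptomes and to 23.8 to 221 CPM in morulae, and blastocyst lineage markers to 5070 to 5920 CPM in blastocyst transcriptomes against 54.2 to 63.6 CPM in GV oocytes. Of the 10 cumulus or granulosa cell markers, only FOXL2 was at 0 in all GV transcriptomes. The list summed to 524 to 655 CPM there and to 15.2 to 21.1 CPM in morula transcriptomes. It summed to more in the pools of GV oocytes (906 to 961 CPM) and of 2-cell embryos (769 to 1060 against 341 to 387 CPM). In blastocysts it summed to less in the pools (29.1 to 44.9 against 55.0 to 74.4 CPM). The part of these markers in the results was not tested. By the methods of the study, cumulus cells were stripped off, the zona pellucida was digested and the material was rinsed and checked for other cells. In bulk RNA of whole oocytes and embryos, fewer cells with a transcript and less of it per cell cannot be told apart, and levels were not compared between genes because no transcript length entered the values.

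Polysome pools were compared with transcriptomes first, to ask which helicase mRNAs were over- or under-represented on polysomes relative to the whole mRNA of the stage. At the stages from MII to blastocyst more members were lower than higher in the pools, and the median of the 46 log2 fold changes lay below that of all genes at every stage. In GV oocytes 12 members were higher (22.2% of all genes tested) and 11 lower (17.7%). In MII oocytes 13 were higher (30.8%) and 16 lower (26.7%). In 2-cell embryos 10 were higher (29.1%) and 20 lower (21.9%), which is 43.5% of the members. At the 8-cell stage 14 were higher (28%) and 19 lower (31%), in morulae 12 were higher (26.5%) and 15 lower (25.2%), and in blastocysts 9 were higher (20%) and 17 lower (20.1%). The percentages in parentheses are the shares of all tested genes called in that direction, and the members' count stood furthest above it for lower members in 2-cell embryos and in blastocysts (37% of the members). The median log2 fold change of the members was, in order of development, -0.11, -0.40, -0.76, -0.68, -0.61 and -0.49, against 0, 0, 0.18, -0.27, 0 and -0.08 over all genes. Calls used edgeR's quasi-likelihood test at an adjusted p below 0.05, and with either GV polysome pool left out the count of members called in GV oocytes fell from 23 to 14.

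**Figure D1:**
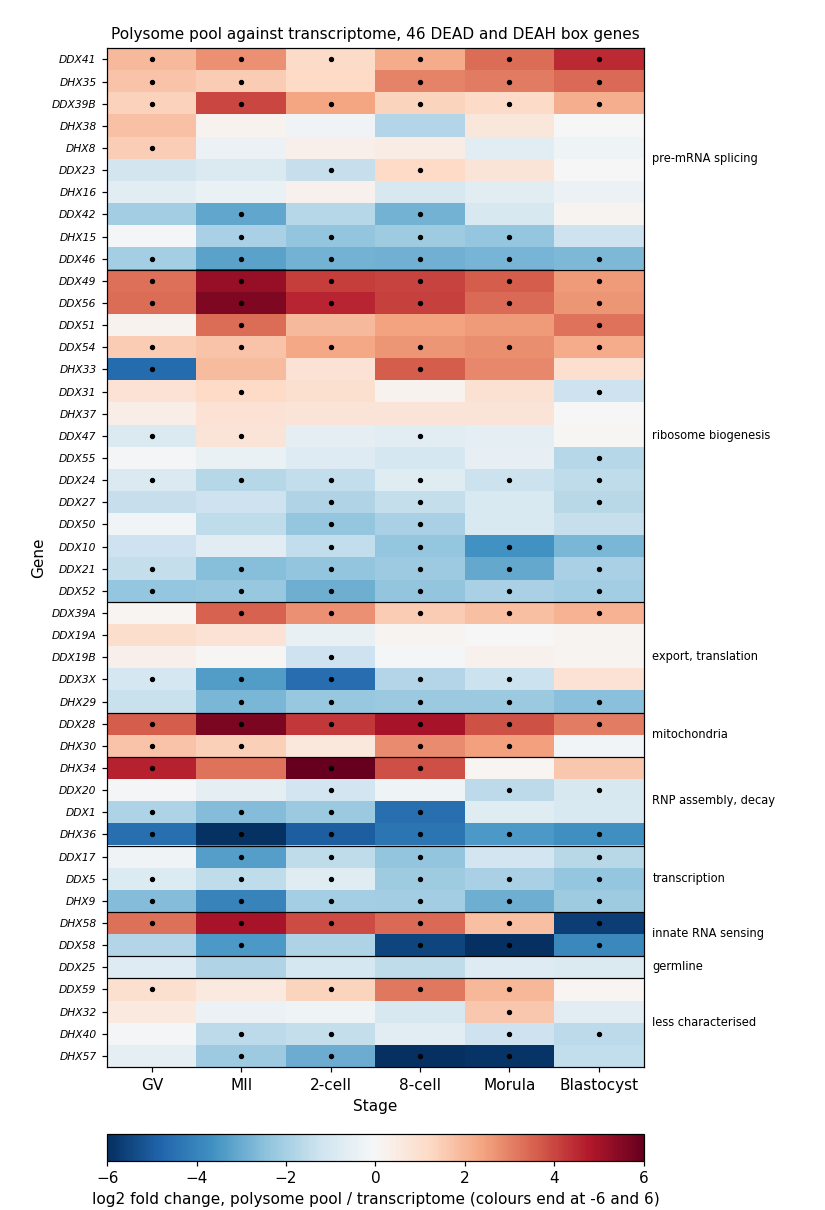
Log2 fold change of each of the 46 genes (rows, grouped by role) between polysome pools (n = 2) and transcriptomes (n = 3) at 6 stages (columns), red for higher and blue for lower in the pools, with a dot where the adjusted p was below 0.05. DDX28, DDX49, DDX54, DDX56, DDX41 and DDX39B are red with a dot in every column, and 7 genes, DHX36 the darkest, are blue with a dot in every column.

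The calls were then followed across stages. At all 6 stages 6 members were higher in the pools (13% of the members, 9.92% of all genes) and 7 were lower (15.2%, 5.78% of all genes). Another 8 members were called higher at 1 to 5 stages and never lower (27.7% of all genes), 15 were called lower at 1 to 5 stages and never higher (35.8%), 5 were called in both directions (7.53%), and 5, which were DDX19A, DDX25, DHX16, DHX37 and DHX38, at no stage (13.2%). A member that was never called in a direction could still have a value of that sign, as DDX3X had in blastocysts (log2 fold change 0.87, adjusted p = 0.0514). The 6 stages share the same model and the spread it estimated.

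Changes between consecutive stages were tested apart in transcriptomes and in polysome pools, with an adjusted p below 0.05 and a fold change above 2. From GV to MII, 5 members rose in transcriptomes (6.61% of all genes) and 8 fell (10.5%), while in polysome pools none rose (3.03%) and 3 fell (2.33%). Over both directions, 9 members had an unadjusted p below 0.05 in the pools and DESeq2 called 5 (1372 of 14324 genes). From MII to 2-cell, 6 members rose (6%) and 3 fell (5.96%) in transcriptomes, and 1 rose (3.37%) and 2 fell (5.14%) in the pools. The step from 2-cell to 8-cell moved the most members, with 13 up (26.6%) and 9 down (23.5%) in transcriptomes and 15 up (21%) and 10 down (25.2%) in the pools. From 8-cell to morula none rose (6.6%) and 2 fell (7.75%) in transcriptomes. There 12 members had an unadjusted p below 0.05 and DESeq2 called 6 (2685 of 14324 genes). The share of all genes with such an unadjusted p was not counted, here or for the pools from GV to MII. In the pools 4 rose (18.5%) and 7 fell (17.7%). From morula to blastocyst 1 rose (10.2%) and 10 fell (11.4%) in transcriptomes, which is 21.7% of the members, and 2 rose (5.79%) and 6 fell (8.13%) in the pools. From 2-cell to 8-cell 12 members rose and 8 fell in both kinds of library. From GV to MII and from MII to 2-cell no member was called in both, with only 3 called in the pools at each step. No member was called in opposite directions in the 2 kinds of library at any step. These overlaps were not counted over all genes, so they cannot be read as particular to the helicases. The smaller counts moved with single libraries. Calls over all genes are not given for those fits, so their counts cannot be read as particular to the helicases either. The pools gave 17 called members from 8-cell to morula without 8-cell pool B, 18 without morula pool B, and 17 from morula to blastocyst without morula pool A, and the pool counts of the first 2 steps ran from 1 to 6 and from 1 to 5 over the fits that left out 1 library.

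**Figure D2:**
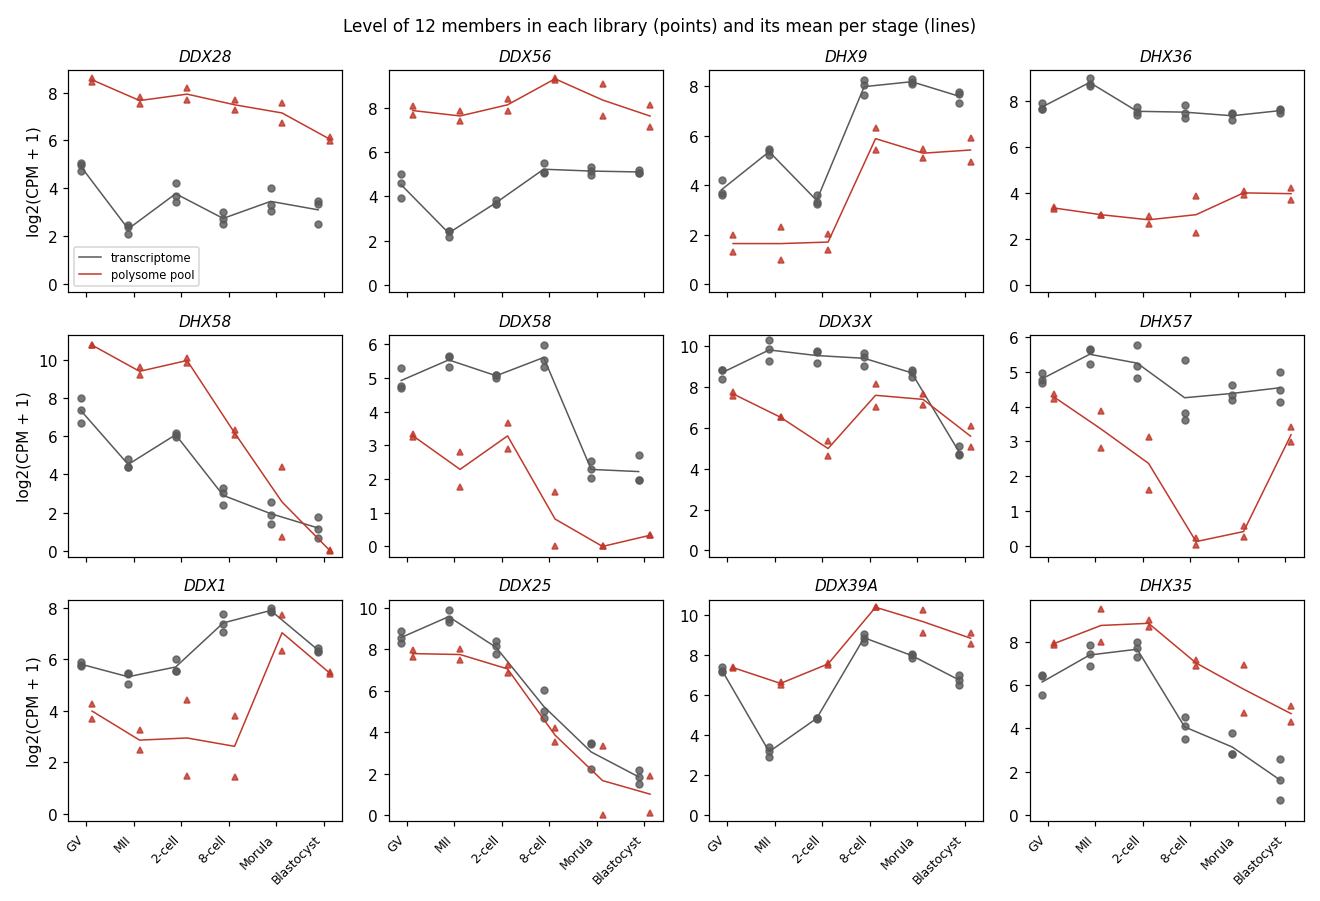
Level of 12 members as log2(CPM + 1) in each transcriptome (grey circles, 3 per stage) and each polysome pool (red triangles, 2 per stage), with lines through the stage means. DDX28 and DDX56 lie higher in the pools and DHX9 and DHX36 lower at every stage, DHX58 falls from GV oocytes to blastocysts in both, and DHX57 is close to 0 in the pools of 8-cell embryos and morulae.

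Among the 15 helicases of ribosome biogenesis, DDX49, DDX54 and DDX56, all nucleolar proteins, were higher in the pools at all 6 stages. DDX56 stood at 235 and 167 CPM in the MII pools and at 3.55, 4.36 and 4.40 CPM in the MII transcriptomes. The pools lay above every transcriptome at each stage, and the log2 fold change was 5.61 ± 0.41 (SE) in MII oocytes (adjusted p = 4.82e-11) and 2.65 ± 0.36 in blastocysts. DDX49 behaved alike in direction, with 241 and 196 CPM in the MII pools and 5.04, 8.11 and 4.52 CPM in the transcriptomes, and its log2 fold change ran from 2.56 in blastocysts to 5.21 in MII oocytes. In both genes the transcriptome level was lowest in MII oocytes. DDX56 fell 5.65-fold from GV to MII in transcriptomes and rose 2.97-fold to the 2-cell stage and a further 3.02-fold to the 8-cell stage, while its pools stood at 207 and 267 CPM in GV oocytes and 233 and 339 CPM in 2-cell embryos. DDX54 was higher by a log2 fold change of 1.53 to 2.79.

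On the other side of the same group, DDX21, DDX24 and DDX52 were lower in the pools at all 6 stages. DDX21, which acts in rRNA synthesis and processing, stood at 33.2 and 26.4 CPM in the morula pools and at 252, 246 and 256 CPM in the transcriptomes, a log2 fold change of -3.08 ± 0.38 (adjusted p = 5.25e-07). DDX24, a factor of the large subunit, was closest to equal at the 8-cell stage, with 115 and 136 CPM in the pools and 157, 258 and 200.1 CPM in the transcriptomes, which do not overlap but nearly meet. DDX52, needed for the small subunit, ranged in log2 fold change from -2.94 to -1.93. Of the other members of the group, DDX10 was lower at 4 stages, DDX27 at 3, DDX50 at 2 and DDX55 at 1, DDX51 was higher at 2, and DHX37 was called at none. DDX31, DDX47 and DHX33 were called in both directions, DDX47 higher in MII pools (log2 fold change 0.76) and lower in GV and 8-cell pools (-0.88 and -0.66). DDX31 was higher in the MII pools (35.7 and 44.8 CPM against 20.3, 21.0 and 11.3 CPM, adjusted p = 0.013) and lower in the blastocyst pools (8.18 and 11.7 CPM against 22.6, 19.9 and 28.6 CPM, adjusted p = 0.021). The blastocyst transcriptomes had gained DDX31 since the morula stage, 3.59-fold (adjusted p = 0.000853), the only member that edgeR called up at that step. That call was lost in the fit with F9 and F10 alone as pools (log2 fold change 1.855, adjusted p = 0.128). DESeq2 called 3 members up at the step (2081 of all genes), and edgeR with RLE scaling called 2 (1716 of all genes). DHX33 was near the detection limit, with 2 counts in 1 GV pool and 0 in the other. It was 29.9 times lower there than in the GV transcriptomes, with an exact Poisson 95% interval of 8.27 to 247, which covers counting error only, and at the 8-cell stage it stood at 30.5 and 2.93 CPM in the pools and 2.06, 1.17 and 0.783 CPM in the transcriptomes. The GV call of DHX33 was lost with any single GV library left out (adjusted p between 0.0519 and 0.217).

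The 10 splicing helicases were split in the same way. DDX41, a component of late spliceosomes, was higher in the pools at all 6 stages and most so in blastocysts, where the pools held 184 and 182 CPM and the transcriptomes 12.9, 4.98 and 7.0 CPM (log2 fold change 4.48 ± 0.42, adjusted p = 2.29e-08). DDX39B, which acts in spliceosome assembly and couples it to export, had its largest excess in MII oocytes, at 261 and 199 CPM against 14.1, 16.9 and 11.7 CPM. In transcriptomes DDX39B fell 4.52-fold from GV to MII and rose 4.1-fold to the 2-cell stage (adjusted p = 2.72e-05), while the pools ran from 144 to 319 CPM over the 3 stages and were called at neither step. DHX35, found in catalytically active spliceosomes, was higher in the pools at 5 stages, all but the 2-cell stage. Its transcriptome level was 248, 204.5 and 157 CPM in 2-cell embryos, 10.5, 16.5 and 22.2 CPM at the 8-cell stage and 5.0, 2.07 and 0.600 CPM in blastocysts, and the fall from 2-cell to 8-cell was 12.4-fold (adjusted p = 1.1e-05). The pools fell 3.59-fold, from 517 and 406 CPM to 118 and 139 CPM, and the difference between both falls did not pass the threshold.

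DDX46, which acts when the U2 snRNP binds the branch site, was lower in the pools at all 6 stages, with log2 fold changes from -3.23 to -2.05. DDX42 was lower at 2 stages, and DHX16 and DHX38 were called at none. DHX15, which takes spliceosomes apart, was lower at 4 stages and rose 6.6-fold in transcriptomes from 2-cell to 8-cell. DHX8, which releases spliced mRNA from the spliceosome, changed on polysomes early. Its GV pools held 100.1 and 84.3 CPM, its MII pools 11.1 and 25.9 CPM and its 2-cell pools 42.9 and 53.8 CPM, and the fall was 4.98-fold (adjusted p = 0.000615) and the rise 2.61-fold (adjusted p = 0.0172). The rise did not pass without MII pool A (adjusted p = 0.169) or 2-cell pool B (adjusted p = 0.12), and neither change passed when F9 and F10 alone made up the pools (adjusted p = 0.146 and 0.388). The transcriptomes of DHX8 ran from 21.2 to 43.8 CPM over these 3 stages and were called at neither step. DDX23, which helps exchange U1 for U6 at the 5′ splice site, was lower in 2-cell pools (log2 fold change -1.37) and higher in 8-cell pools (1.19).

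Among the 5 members of mRNA export and translation, DDX39A was higher in the pools at 5 stages. In transcriptomes this export helicase stood at 147, 171 and 143 CPM in GV oocytes and at 8.24, 9.53 and 6.66 CPM in MII oocytes, an 18.8-fold fall (adjusted p = 4.26e-10). It then rose 3.4-fold to the 2-cell stage and 16.9-fold to the 8-cell stage, where the transcriptomes held 406, 538 and 461 CPM. The pools moved over a narrower range, from 89.5 and 101 CPM in MII oocytes to 1332 and 1342 CPM at the 8-cell stage. DDX39A and DDX39B are close paralogues, as are DDX19A and DDX19B, DDX5 and DDX17, and DDX21 and DDX50, and reads shared within such a pair could have been divided between them in the counting, so a value of 1 of the pair is less certain than its error shows.

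DDX3X, which helps ribosomes to initiate on structured 5′ leaders, was lower in the pools at 5 stages and most so in 2-cell embryos, at 39.6 and 24 CPM against 865, 837 and 581 CPM (log2 fold change -4.58 ± 0.44, adjusted p = 8.82e-09). Its pools had fallen 2.86-fold since the MII stage (adjusted p = 0.0168), a call lost without MII pool B (adjusted p = 0.0679) or 2-cell pool B (adjusted p = 0.19). In blastocysts the transcriptomes had dropped to 25.3, 33.2 and 24.2 CPM, 15.2-fold below the morulae (adjusted p = 4.2e-08) and the largest fall of a member at that step. The blastocyst pools at 68.0 and 33.1 CPM then overlapped the transcriptomes. DHX29, an initiation factor for scanning ribosomes, was lower at 5 stages, and DDX19A and DDX19B, which strip export factors at the nuclear pore, were called at no stage and at 1 stage. DDX19B rose from 2-cell to 8-cell in transcriptomes (4.3-fold) and in pools (9.65-fold).

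Of the 2 mitochondrial members, DDX28 was higher in the pools at all 6 stages and DHX30 at 4. DDX28, a factor in mitochondrial ribosome assembly, stood at 183 and 223 CPM in the MII pools and at 4.24, 3.24 and 4.52 CPM in the transcriptomes, a log2 fold change of 5.67 ± 0.41 (adjusted p = 3.85e-11). Its log2 fold change lay between 3.05 and 5.67 at the 6 stages, and the pools exceeded each transcriptome everywhere. DHX30 works in mitochondrial RNA granules. In blastocysts its pools (30.9 and 13 CPM) overlapped the transcriptomes (30.9, 20.3 and 22.8 CPM).

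Of the 4 helicases of RNP assembly and decay, DHX36 was lower in the pools at all 6 stages. Its deficit against the transcriptomes was the deepest of the members so called. That deficit was not confined to polysomes. In GV oocytes the log2 ratio to the transcriptome was -4.85 in F1-F2, -4.77 in F3-F5 and -4.41 in F8-F10. In blastocysts it was -1.34, -3.29 and -3.83 in the same order. DHX36, which unfolds G-quadruplexes in RNA, stood at 9.56 and 8.70 CPM in the GV pools against 201, 237 and 199 CPM in the transcriptomes, and at 7.28 and 7.22 CPM against 514, 402 and 422 CPM in MII oocytes. The MII log2 fold change was -5.94 ± 0.45 (adjusted p = 8.07e-11), and the smallest deficit was -3.44 in morulae. DDX1, a subunit of the tRNA ligase complex, was lower from GV to the 8-cell stage. DDX20, the Gemin3 subunit of the SMN complex, was lower at 3 stages. DHX34, which activates UPF1 in nonsense-mediated decay, had at most 2.06 CPM in any transcriptome. Its 2-cell pools held 26.0 and 21.2 CPM against 0.457, 0.320 and 0 CPM (adjusted p = 0.00188), and its GV pools 6.0 and 2.89 CPM against 0.304, 0.205 and 0 CPM (adjusted p = 0.0217). The GV call was lost without GV pool A (adjusted p = 0.0862), GV transcriptome B (0.061) or GV transcriptome C (0.081), and with pools of F9 and F10 alone (adjusted p = 0.143), and the 8-cell pools were far apart, at 0.0820 and 19 CPM.

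All 3 members of the transcription group rose from 2-cell to 8-cell, in transcriptomes (26.6% of all genes rose) and in pools (21%). DHX9, known as RNA helicase A, stood in transcriptomes at 11.2, 17.3 and 11.8 CPM in GV oocytes, 36.3, 42.8 and 41.3 CPM in MII oocytes, 8.60, 11.1 and 8.88 CPM in 2-cell embryos and 199, 305 and 265.5 CPM at the 8-cell stage. It rose 2.99-fold to MII (adjusted p = 0.00578), fell 4.21-fold to the 2-cell stage (adjusted p = 0.000955) and rose 26.9-fold to the 8-cell stage (adjusted p = 7.9e-09), and in the pools 3.03 and 1.63 CPM became 42.5 and 79.3 CPM, a 26-fold rise. DDX17, a transcriptional coregulator, rose 24.9-fold in transcriptomes and 13.8-fold in the pools at the same step, and again 3.86-fold in the pools to the morula stage. Its partner DDX5 rose 10.3-fold in transcriptomes but 3.95-fold in the pools, and that difference passed the test (log2 -1.39 ± 0.39, adjusted p = 0.0223). DHX9 and DDX5 were lower in the pools at all 6 stages and DDX17 at 4.

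The 2 receptors of the RIG-I family among the members differed from each other in the pools from GV oocytes to morulae. In blastocysts both were lower in the pools. DHX58, known as LGP2, was higher in the pools from GV oocytes to morulae. In transcriptomes it already fell 7.85-fold from GV to MII (adjusted p = 0.00141). The 2.57-fold fall in the pools at that step did not pass (adjusted p = 0.335). Its GV pools held 1749 and 1764 CPM and its GV transcriptomes 260, 103 and 164 CPM, while at the 8-cell stage 78.5 and 65.2 CPM stood against 7.11, 4.30 and 8.79 CPM. From 2-cell to 8-cell it fell 14-fold in pools and 9.93-fold in transcriptomes. In morulae the pools parted, at 0.627 and 20.3 CPM, and overlapped the transcriptomes at 2.71, 1.61 and 4.96 CPM. In blastocysts 1 count was left in 2 pools, which was 65.1 times below the transcriptomes at 1.18, 0.622 and 2.40 CPM, with a counting interval of 11.7 to 2570. DDX58, which encodes RIG-I, was lower at 4 stages. In transcriptomes it stood at 62.3, 38.9 and 44.9 CPM at the 8-cell stage and 3.08, 4.83 and 3.88 CPM in morulae, a 12.4-fold fall (adjusted p = 0.00181). The 8-cell pools held 0 and 2.09 CPM and both morula pools 0 counts, so that DDX58 was at least 34-fold lower in morula pools than in morula transcriptomes, taking a floor of 3 counts per library. Without 8-cell pool B the pool values of DDX58 were 0 at both stages and gave no change (log2 fold change 0), and the fitted change to the blastocyst pools, at 0.261 and 0.255 CPM, which was at least 2.24-fold upward, was lost without either morula pool or either blastocyst pool (adjusted p between 0.0664 and 0.13).

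DDX25, a helicase of germ cells, followed the oocyte. Its transcriptomes held 709, 643 and 946 CPM in MII oocytes, 330, 280 and 213 CPM in 2-cell embryos, 31.4, 65.0 and 24.6 CPM at the 8-cell stage and 3.53, 1.87 and 2.60 CPM in blastocysts. It fell 6.8-fold from 2-cell to 8-cell in transcriptomes (adjusted p = 0.00673) and 9.52-fold in the pools, and pools and transcriptomes did not differ past the threshold at any stage. Of the less characterised members, DDX59 was higher in the pools at 4 stages, DHX32 was higher in morulae, and DHX40 and DHX57 were lower at 4 stages each.

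The interaction of library kind and stage was tested to ask whether polysomes and transcriptome moved by different amounts. From 2-cell to 8-cell 3 members gained on polysomes relative to the transcriptome (3.45% of all genes) and 4 lost (8.72%). DDX3X had the largest gain, as its pools rose from 39.6 and 24 CPM to 131 and 286 CPM while its transcriptomes stayed between 529 and 865 CPM, and the difference of the log2 changes was 2.84 ± 0.51 (adjusted p = 0.000886). DDX23 rose in the pools from 5.62 and 8.92 CPM to 81.9 and 26.1 CPM, with a difference of 2.56 ± 0.69 (adjusted p = 0.0166), which did not pass without 8-cell pool A (adjusted p = 0.137) or 2-cell pool A (adjusted p = 0.0882), or with pools of F9 and F10 alone (adjusted p = 0.0598). DDX59 had lost 7.02-fold in transcriptomes and 2-fold in pools, a difference of 1.81 ± 0.46 (adjusted p = 0.0111).

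DHX57 lost the most. Its pools fell from 2.06 and 7.75 CPM in 2-cell embryos to 4 counts and 1 count at the 8-cell stage, 60.1 times lower with a counting interval of 25.8 to 185, while its transcriptomes held 39.0, 11.2 and 13.2 CPM. The difference was -4.84 ± 0.98 (adjusted p = 0.00244), or adjusted p = 0.0809 with F9 and F10 alone. In blastocysts the pools were back at 9.66 and 6.85 CPM, a 24.4-fold rise over morulae (adjusted p = 0.000557), and the transcriptomes at 21.5, 31.1 and 16.4 CPM. DDX58 lost 3.66 ± 1.11 on the log2 scale (adjusted p = 0.0323), which did not pass without 2-cell pool B, any 2-cell transcriptome or 8-cell transcriptome A (adjusted p between 0.0597 and 0.113). DDX5 and DDX39A, the other members that lost, rose in both kinds of library but less in the pools.

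From 8-cell to morula 2 members gained (7.06%) and none lost (5.41%). An unadjusted p below 0.05 was found for 7 members, and DESeq2 called 4 (2758 of 14041 genes). The share of all genes with such an unadjusted p was not counted. DDX1 pools rose from 1.68 and 13.1 CPM to 211 and 79.7 CPM (19.6-fold, adjusted p = 0.000294) while the transcriptomes held 219, 134 and 166 CPM and then 231, 229 and 253 CPM. The difference was 3.83 ± 0.95 (adjusted p = 0.00959), and 2.96 without morula pool A (adjusted p = 0.0522). DHX32 fell 2.6-fold in transcriptomes and stood at 11.7 and 12.4 CPM and then 37.1 and 19.0 CPM in the pools, a difference of 2.60 ± 0.66 (adjusted p = 0.0109) that did not pass without morula pool A (adjusted p = 0.0552) or with F9 and F10 alone (adjusted p = 0.0765). These counts rested on few pools. Calls over all genes are not given for the fits with a library left out, so their counts cannot be read as particular to the helicases. Without 8-cell pool B the members called were 18 for the step into the 8-cell stage and 14 for the step out of it. Without 8-cell pool A they were 4 and 4. Without morula pool A or B the step out of the 8-cell stage gave 1 and 8, and without 2-cell pool A or 2-cell transcriptome C the step into it gave 4 and 4.

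**Figure D3:**
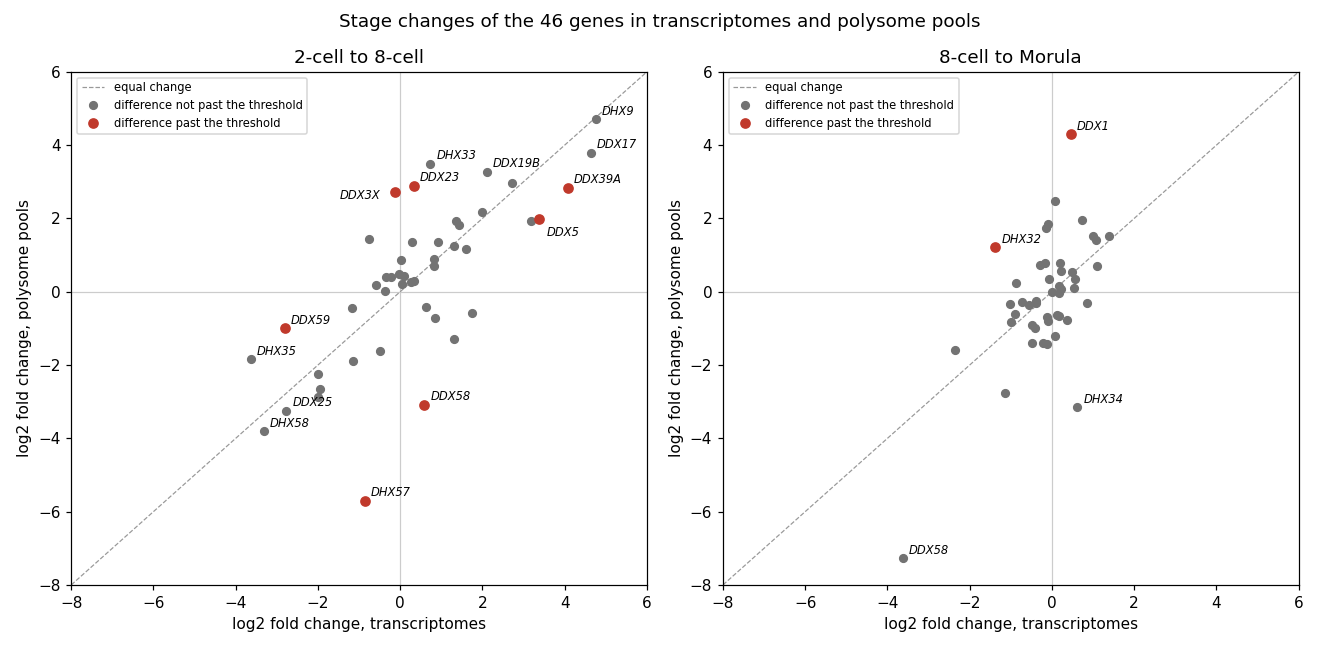
Log2 fold change of each of the 46 genes in polysome pools (vertical) against that in transcriptomes (horizontal) for 2-cell to 8-cell (left) and 8-cell to morula (right), in red where the difference between both passed the threshold and with a dashed line of equal change. DHX57 and DDX58 lie below the line and DDX3X, DDX23 and DDX59 above it on the left, and DDX1 and DHX32 lie above it on the right.

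The pools were also set against the monosome fractions F3 to F5 of the same gradients, which compares libraries that were handled alike. By edgeR no more than 1 member was called at any stage other than the 8-cell stage. From GV to blastocyst, 14, 6, 4, 19, 14 and 4 members had an unadjusted p below 0.05. DESeq2 called 6, 4, 1, 16, 8 and 2 members. In that order DESeq2 called 577 of 11989 genes, 605 of 13431, 204 of 13142, 3599 of 14873, 1932 of 14007 and 1439 of 14007. The share of all genes with an unadjusted p below 0.05 was not counted. In GV oocytes 1 was called (0.498% of all genes in either direction), DHX37, at 7.52 and 9.35 CPM in F8-F10 and 69.6 and 91.4 CPM in F3-F5 (adjusted p = 0.04). In MII oocytes 1 was called (0.437%), DDX24, at 75.8 and 90.8 CPM in F8-F10 and 385 and 331 CPM in F3-F5 (adjusted p = 0.0144). In the fit with the gradient as a block, since fractions of a letter come from 1 gradient, the same values gave adjusted p = 0.13 for DHX37 and 0.0639 for DDX24. Leaving out any library of the stage also ended each of these calls (adjusted p between 0.17 and 0.45 for DHX37 and between 0.102 and 0.17 for DDX24), and the DHX37 call was lost in 16 of the 24 fits that left out 1 library of any stage. In 2-cell embryos no member (0%) and in morulae no member (1.59%) was called by edgeR, with 4 and 14 members at an unadjusted p below 0.05 and 1 and 8 by DESeq2. With the gradient as a block DHX30 passed in morulae (84.1 and 25.4 CPM in F8-F10, 8.86 and 1.32 CPM in F3-F5, adjusted p = 0.0466).

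At the 8-cell stage 7 members were called (9.35%). DDX20, DDX3X and DDX23 were higher in the heavy fractions, and DHX35, DDX39B, DDX39A and DHX57 in the monosome fractions. DHX35 stood at 108 and 124 CPM in F8-F10 and 719 and 1029 CPM in F3-F5 (adjusted p = 0.024), although its polysome pools exceeded the transcriptomes of the stage. DDX39A, at 1212 and 1195 CPM against 3880 and 2366 CPM, and DDX39B, at 199.7 and 211 CPM against 660.2 and 525 CPM, were alike in this. DDX20 held 128 and 66.5 CPM in F8-F10 and 12.1 and 14.6 CPM in F3-F5 (adjusted p = 0.00864), and DDX3X 119 and 254 CPM against 42.8 and 33.1 CPM (adjusted p = 0.0216). DDX23 stood at 74.5 and 23.3 CPM against 3.71 and 6.95 CPM, and DHX57 at 4 counts and 1 count against 9.14 and 1.72 CPM. With the gradient as a block 5 of the 7 remained, and DDX23 (adjusted p = 0.0781) and DDX39A (adjusted p = 0.0618) did not pass. The DDX23 call was also lost without the A pool of either kind or the F3-F5 pool of gradient B (adjusted p between 0.0738 and 0.141), and the DHX57 call without the F3-F5 pool of gradient A or the F8-F10 pool of gradient B (adjusted p = 0.0865 and 0.0605). Without the F3-F5 pool of gradient A none of the members was called, and without the F8-F10 pool of gradient A 4 were. In blastocysts 1 member was called (1.43%), DHX57, at 9.34 and 6.74 CPM in F8-F10 against 0 and 1 count in F3-F5 (adjusted p = 0.0338, and 0.0526 with the gradient as a block), which was 180 times higher with a counting interval of 32.3 to 7110. That call was lost with any blastocyst pool left out (adjusted p between 0.0666 and 0.109) and with several pools of other stages left out.

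**Figure D4:**
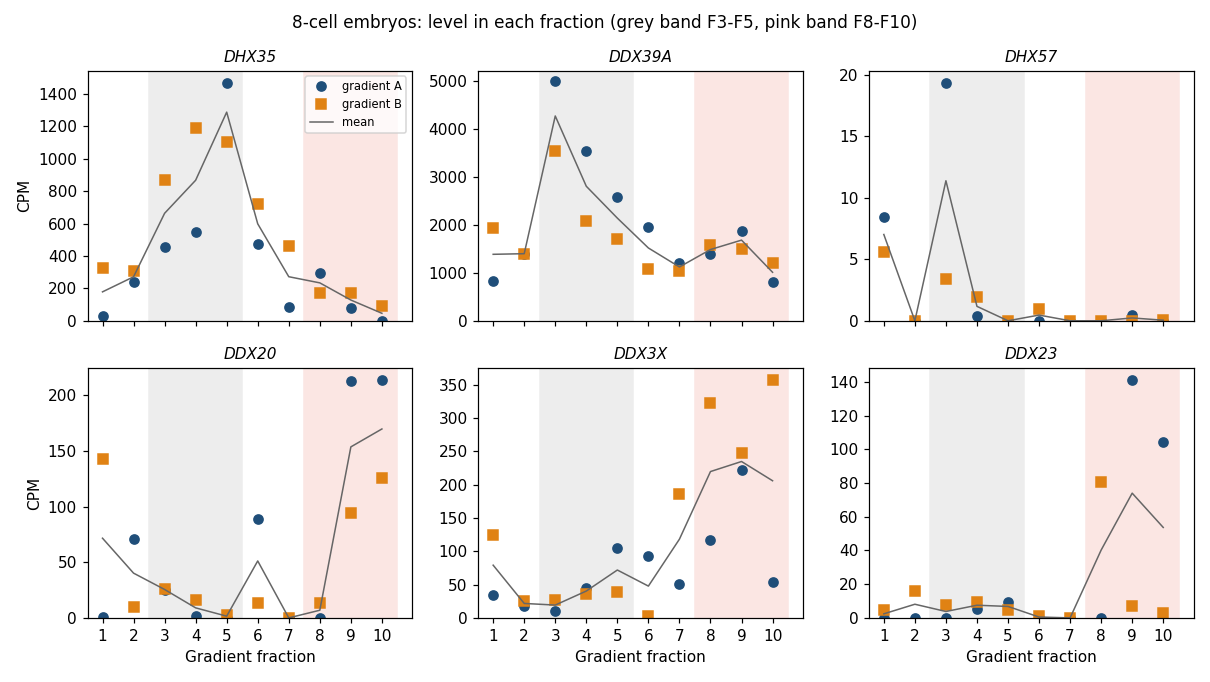
Level in CPM of 6 members in fractions F1 to F10 of 8-cell gradients A (circles) and B (squares), with the mean as a line, the monosome fractions shaded grey and the polysome fractions pink. CPM is scaled to each fraction's own library and is not the amount of mRNA in the fraction. The mean of DHX35, DDX39A and DHX57 peaks within F3 to F5 and that of DDX20, DDX3X and DDX23 within F8 to F10, but the gradients peak in different parts for DHX57 and DDX20, and DDX23 is high in F9 and F10 of gradient A and in F8 of gradient B.

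The members higher or lower than the transcriptome at all 6 stages were so in nearly all parts of the gradient. They were chosen by F8-F10 against the same transcriptomes, so agreement in sign is partly fixed by that choice. Pairs of gene and stage are not separate observations. Of all genes, 1449 were higher and 845 lower at all 6 stages, and the other parts of the gradient were not compared for them. For the 6 higher members, the mean over F3 to F5 exceeded the transcriptome in 36 of 36 pairs of gene and stage, and that over F1 and F2, which hold mostly free RNA, in 35 of 36. The median log2 ratio on log2(CPM + 1) was 2.76 in F1-F2, 3.36 in F3-F5, 2.97 in F6-F7 and 2.74 in F8-F10. For the 7 lower members, F3-F5 lay below the transcriptome in 41 of 42 pairs and F1-F2 in 41 of 42, with medians of -2.90 in F1-F2, -3.54 in F3-F5 and -2.34 in F8-F10. Gradient libraries and transcriptomes also differed in how the RNA was obtained, and that difference and polysome occupancy cannot be told apart in a comparison of pools with transcriptomes. Changes between stages of the same kind of library, and heavy against light fractions, compare libraries of 1 kind. The stage changes still share the scaling, the filter and the estimated spread of the fit that held both kinds.

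Along the gradient, the fraction with the highest mean level of a member lay in F8 to F10 for 20 of 46 members in GV oocytes (43.5%, against 33% of all genes), 16 in MII oocytes (34.8%, against 32.5%), 19 in 2-cell embryos (41.3%, against 31.2%), 20 at the 8-cell stage (43.5%, against 34.6%), 12 in morulae (26.1%, against 28.3%) and 12 in blastocysts (26.1%, against 28.7%). In blastocysts it lay in F1 or F2 for 21 members (45.7%, against 26.3% of all genes), in MII oocytes for 3 (6.52%, against 27.6%) and in 2-cell embryos for 2 (4.35%, against 28.6%). Genes undetected at a stage were not removed from the shares of all genes, and such genes fall to F1. That can raise the F1-F2 share of all genes and lower their F8-F10 share, by an amount that was not counted. Fewer members in F1-F2, or more in F8-F10, therefore cannot be read as particular to the helicases. Each level was scaled to its own fraction library. A peak therefore marks the fraction where a member took its largest share of a library. How the mRNA of a member was spread over the gradient was not measured. Both gradients put the peak in the same part of the gradient for 16 to 29 of the 46 members, depending on the stage.

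Related genes were counted for context. Of 16 other RNA helicases, 8 were lower and 4 higher in the pools in 2-cell embryos and 9 lower and 5 higher at the 8-cell stage, where 21.9% and 31% of all genes were lower and 29.1% and 28% higher. EIF4A2, a cap-complex helicase, was lower at all 6 stages, with a log2 fold change of -4.64 in MII oocytes and -1.14 in blastocysts, and SKIV2L, of the cytoplasmic exosome cofactor, was higher by 7.06 in MII oocytes. Of 30 partners of the helicases (THO and SMN complexes, G-patch proteins and the like), 9 were higher and 11 lower in the pools both in 2-cell embryos and at the 8-cell stage, with the same shares of all genes, and 10 rose (18.5% of all genes) and 1 fell (17.7%) in the pools from 8-cell to morula. GEMIN4, which binds DDX20 in the SMN complex, was higher in MII, 2-cell and 8-cell pools (log2 fold change 4.96, 4.38 and 4.37), where DDX20 itself was lower in the 2-cell pools (-1.13 ± 0.32).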

How the data were processed

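The authors sequenced Smart-seq2 libraries of gradient fractions and whole oocytes or embryos, and quantified them with Salmon against the bovine Ensembl annotation. The deposited values are expected counts per gene, of which 11.7% were not whole, and they were rounded to whole numbers here. Library totals ran from 1229382 to 17342859 over 138 libraries (median 10339169), and every value column was mapped to a sample, with 0 left over. No sequence reads were used, and no strand setting is given in the sources used here. Intervals cover counting error only, since amplified reads carried no molecular identifiers.

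F8 to F10, or F3 to F5, were summed within each gradient. Groups were compared in R 4.3.3 with edgeR 4.0.16 (limma 3.58.1), by TMM scaling, filterByExpr and the two-sided quasi-likelihood F test, with Benjamini-Hochberg adjustment over all genes tested at a threshold of 0.05. Stage changes also had to exceed a fold change of 2. One fit held 12 polysome pools and 18 transcriptomes, and another 24 pools of heavy and light fractions (14873 genes). Standard errors were derived from the F statistic. CPM printed here used the same scaling, so that the F8-F10 values of the 2 fits differ slightly. Letters A, B and C name libraries. Same-lettered pools and transcriptomes had deviations correlated at -0.063 to 0.015, so the letters were not taken as pairs, whereas heavy and light pools of a letter come from the same gradient. The labels do not say that libraries of a group came from separate collections, and p-values measure the spread between these libraries only. No 2 replicates held identical values.

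Members with full values were those with the largest changes per stage, step and interaction, and the member of each role group with the widest transcriptome range. Others were named for completeness after their values had been seen. Members, role groups and lists were chosen with earlier results of these data known. Alternatives were the likelihood ratio test, DESeq2 1.42.0, RLE scaling, no filter, a replicate block, F9 and F10 as polysomes, and each library left out. The ratio of other gradient parts to the transcriptome and the peak fractions were added after the data had been seen. Python 3.11.15 drew up the tables.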

Additional observations from a re-analysis of the deposited data

Results flagged for a closer look

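The change in polysome pools minus that in transcriptomes was tested with edgeR. From 2-cell to 8-cell it differed from 0 for DDX3X (2.84 on the log2 scale), DDX23 (2.56), DHX57 (-4.84) and DDX58 (-3.66). From 8-cell to morula the same held for DDX1 (3.83) and DHX32 (2.60). These are the largest in each direction, and DDX59, DDX5 and DDX39A also passed from 2-cell to 8-cell. Of the calls with values here, all but that of DDX3X were lost under some alternative or with some library left out, as given above.

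The remaining results were singled out because every pool lay above the transcriptomes at one stage and below them at another. The log2 fold change of polysome pools against transcriptomes was 4.94 in MII oocytes and -5.65 in blastocysts for DHX58, the RIG-I family receptor LGP2, and 1.2 in MII oocytes and -1.25 in blastocysts for DDX31. For DHX33 it was 3.64 at the 8-cell stage and -4.60 in GV oocytes, where the pools held 2 and 0 counts. The difference between the stages was not tested for these genes. For DDX23 it was 1.19 at the 8-cell stage and -1.37 in 2-cell embryos, and that difference is the interaction given above.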

How the results depend on the processing

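Counts of members called moved by more than 1.5 times under these alternatives. From 8-cell to morula, transcriptomes gave 4 by the likelihood ratio test, 6 by DESeq2, 5 with RLE scaling and 1 with F9 and F10 as polysomes, and from MII to 2-cell 5 with F9 and F10. Pools gave 5 by DESeq2, 1 with RLE and 0 with F9 and F10 from GV to MII, and 5 by the likelihood ratio test and 5 by DESeq2 from MII to 2-cell. The interaction gave 3 with F9 and F10 from 2-cell to 8-cell and 4 by DESeq2 from 8-cell to morula. For heavy against light fractions, the likelihood ratio test gave 2 for GV, 6 for morula and 2 for blastocyst pools, and DESeq2 gave 6, 4, 1, 16, 8 and 2 members from GV to blastocyst. There GV oocytes gave 0 with no filter and 0 with F9 and F10, blastocysts 0 with F9 and F10, and morulae 1 with RLE. The cause was not tested.

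With the gradient as a replicate block, heavy against light gave 0 members for GV and MII, 5 for 8-cell, 1 for morula and 0 for blastocyst pools. With the letter as a replicate block, polysome pools against transcriptomes gave 22, 28, 29, 29, 27 and 25 members from GV to blastocyst, and the GV call of DHX33 was lost (log2 fold change -4.46, adjusted p = 0.0568).

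With 1 library left out at a time, counts ran from 14 to 31 for pools against transcriptomes in GV oocytes, and in transcriptomes from 1 to 6 from 8-cell to morula. In pools they ran from 1 to 6 from GV to MII, 1 to 5 from MII to 2-cell, 8 to 18 from 8-cell to morula and 6 to 17 from morula to blastocyst. The interaction ran from 4 to 18 into the 8-cell stage and from 1 to 14 out of it. Heavy against light ran from 0 to 1 for GV and for MII, 0 to 8 for 8-cell, 0 to 4 for morula and 0 to 2 for blastocyst pools.

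Of 318 recalculations of 53 values of single members, 300 kept direction and call and 18 lost the call. Of 1560 with a library left out, 1497 kept both, 62 lost the call and 1 lost its direction, the change of DDX58 in pools from 8-cell to morula, which was 0 without 8-cell pool B and, fitted against pools at 0, -8.22 without 8-cell pool A. RLE scaling moved the median log2 fold change of all genes from -0.265 to -0.504 at the 8-cell stage and from 0.183 to 0.012 in 2-cell embryos, for pools against transcriptomes. Calls over all genes are not given for the fits with a library left out, so the ranges of member counts cannot be read as particular to the helicases. Depth limited DHX33, DHX34, DDX58, DHX57 and DHX58 among others, which had single-digit counts in some libraries.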
